A study of Mus musculus with 16 samples.

Results

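The TNF superfamily ligands and receptors were followed at the RNA level in mGF, which are primary gingival fibroblasts grown out of explants of mouse gum. The members were the genes whose symbol is Tnfsf or Tnfrsf followed by a number, together with Tnf, Fas, Fasl, Cd40, Ltbr, Ngfr, Eda2r, Lta and Ltb, and without Tnfsf11 and Tnfrsf11b. This gave 38 genes, 14 ligands and 24 receptors, of the 56941 genes in the count table. The wild-type C57Bl6 mice were 3 to 6 months old, the cells were used between passages 2 and 8, and all were treated for 24 h. There were 4 conditions with 4 libraries each. BSA (control) received the BSA vehicle, IL-1β received the vehicle and 1 ng/mL of mouse recombinant IL-1β, palmitate received 200 μM palmitate complexed to BSA, and palmitate + IL-1β received both agents at these doses. Palmitate is a saturated fatty acid used to impose metabolic stress, and IL-1β is an inflammatory cytokine. How many animals or cultures stand behind the libraries is not given in the sources used here, so p-values measure the spread between these libraries, which may be technical.

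Ligands of the TNF superfamily are made mostly as trimers on the cell surface, and many are then shed by proteases. Their receptors fall into groups with different adaptors. Death receptors carry an intracellular death domain that can recruit caspases, other receptors bind TRAF adaptors and activate NF-κB, and decoy receptors bind ligand without passing on a full signal. In gingiva, fibroblasts are a target of TNF released by immune cells during inflammation, and several co-stimulatory receptors and ligands of the family are better known from lymphocytes and antigen-presenting cells.

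Each library held between 21234789 and 92752515 counts on genes. Palmitate replicate 10 was the deepest, and all other libraries held at most 35329711. Levels are given as CPM, the counts scaled to a common size of the TMM-adjusted libraries, and 3 counts corresponded to between 0.0331 and 0.146 CPM, depending on the library. The 9 fibroblast markers summed to between 28473 and 33713 CPM. The other marker lists were low. The 4 keratinocyte markers summed to at most 0.728 CPM, the 6 markers of macrophages and other leukocytes 4.35 CPM, the 5 lymphocyte markers 0.124 CPM and the 4 endothelial markers 2.25 CPM. Ms4a1, a B cell marker, had 0 counts in all 16 libraries. Low but present were 3 of the 6 leukocyte markers and 3 of the 4 endothelial markers, with 10 or more counts in 4 or more libraries. These leukocyte markers were Csf1r, Cd68 and Lyz2, with 757, 569 and 341 counts over the 16 libraries.

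Of the 38 members, 23 had 10 or more counts in 4 or more libraries, and these were 5 of the 14 ligands and 18 of the 24 receptors. The same 23 passed the expression filter and were tested with edgeR among 16306 genes, with p-values adjusted over all of them. The other 15 members, TNF itself among them, were too low to test. Most tested members rose with palmitate. With palmitate 18 of the 23 tested members rose and 1 fell, with IL-1β 7 rose and 0 fell, and with palmitate + IL-1β 14 rose and 0 fell, each against the same 4 BSA libraries. The largest rise was that of Cd40, from a mean of 0.0919 ± 0.0415 CPM (SD, n = 4) in BSA to 6.71 ± 0.529 CPM with palmitate.

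These counts stand beside a broad response of the whole transcriptome, in which palmitate also called more genes than IL-1β did. Over all 16306 genes, 15.1% were called with IL-1β, 10.1% higher and 4.97% lower, and the libraries did not overlap for 17.6% of genes. With palmitate 37.3% were called, 19.8% higher and 17.5% lower, with no overlap for 36% of genes. With palmitate + IL-1β 47.3% were called, 24.8% higher and 22.5% lower, with no overlap for 41.5%. The share of tested members that rose was 30.4% with IL-1β, 78.3% with palmitate and 60.9% with both agents. A member that is high in 1 condition alone passes the filter because of it, and 6 tested members (Cd40, Tnfsf8, Tnfsf15, Tnfsf18, Tnfrsf4 and Tnfrsf19) had under 10 counts in at least 1 library. Among the 17 tested members with 10 or more counts in every library, 4 rose with IL-1β, 14 with palmitate and 10 with both agents. The libraries of the 2 conditions did not overlap for 7 members with IL-1β, 17 with palmitate and 15 with both. The median log2 fold change of the tested members was 0.10 with IL-1β, 0.56 with palmitate and 0.57 with both agents, while that of all genes tested was −0.00486, −0.00303 and 0.0017. In bulk RNA, a change in the number of cells that use a gene and a change in RNA per cell cannot be told apart.

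**Figure D1:**
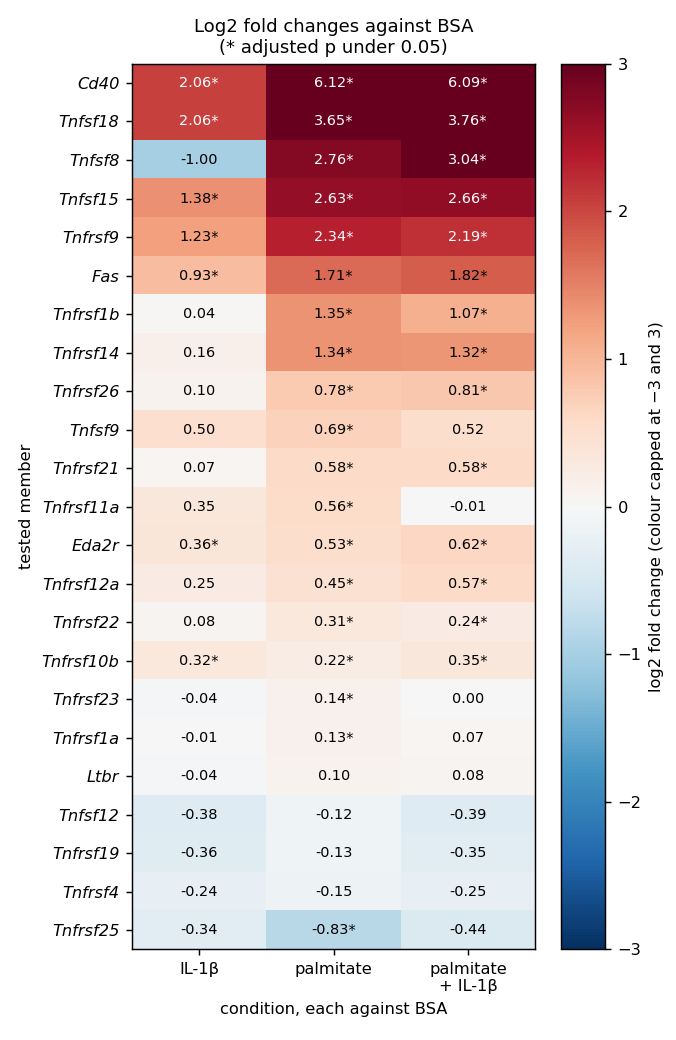
Log2 fold changes of the 23 tested members (rows, ordered by the change with palmitate) in IL-1β, palmitate and palmitate + IL-1β (columns), each against BSA, with an asterisk where the adjusted p is under 0.05. Cd40 stands at the top with 6.12 in palmitate and 6.09 in palmitate + IL-1β, and Tnfrsf25 at the bottom with -0.83 in palmitate.

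Per length of transcript, the family in mGF was mostly its receptors. In BSA the highest levels were those of Ltbr with 30.4 ± 1.31 CPM per kb of exon and Tnfrsf1a with 28.4 ± 0.937 CPM per kb, each mean ± SD of 4 libraries. The order of these 2 turned when the longest transcript was used for the length, with 33.6 CPM per kb for Ltbr and 38.2 for Tnfrsf1a. Tnfrsf10b with 11.5 ± 0.236, Eda2r with 10.7 ± 0.639 and Tnfrsf23 with 10.2 ± 0.522 CPM per kb followed, and Eda2r and Tnfrsf23 lay within their SD of each other. Fas stood at 7.53 ± 0.676, Tnfrsf1b at 5.38 ± 0.172 and Tnfrsf12a at 4.25 ± 0.29 CPM per kb. By the longest transcript, Tnfrsf23 (13.7 CPM per kb) stood before Eda2r (12.4), and Tnfrsf12a (7.53) before Tnfrsf1b (5.42). Tnfsf12, which encodes TWEAK, was the highest ligand with 1.26 ± 0.232 CPM per kb. With palmitate Fas moved up to the third place at 24.6 ± 1.55 CPM per kb and Tnfrsf1b to the fifth at 13.7 ± 0.363, while Ltbr and Tnfrsf1a stayed the first and the second of the members at 32.5 ± 0.456 and 31.1 ± 1.08 CPM per kb. Tnfrsf1b lay within its SD of Tnfrsf10b, the sixth at 13.4 ± 0.156. With the longest transcript as length, Fas kept its place in palmitate, while Tnfrsf1a (41.9 CPM per kb) stood before Ltbr (36.0) and Tnfrsf1b (13.8) was the seventh.

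**Figure D2:**
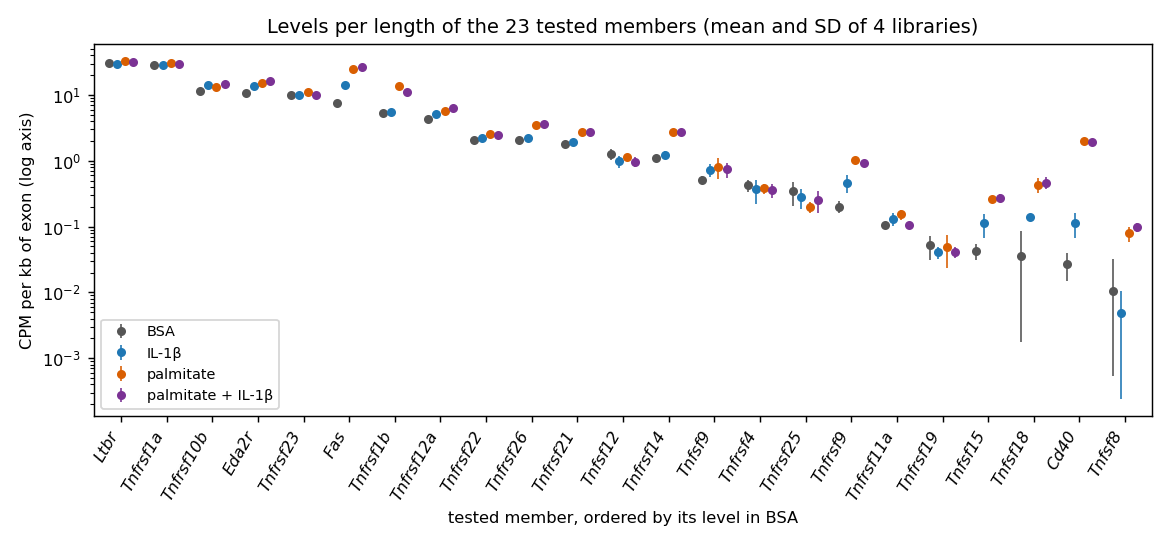
Mean level of each tested member in CPM per kb of exon (log axis) with the SD of 4 libraries, by condition, ordered by the level in BSA. Lower bars that would reach 0 are drawn shortened, since the axis is logarithmic. Ltbr and Tnfrsf1a lie near 30 in all 4 conditions, and Cd40 moves from 0.0269 in BSA to 1.97 CPM per kb in palmitate.

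TNF and the lymphotoxins signal through TNFR1 (Tnfrsf1a), TNFR2 (Tnfrsf1b) and the lymphotoxin β receptor (Ltbr). Their RNA was next to absent in these cells, while that of their receptors was abundant. Tnf had 0 to 5 counts per library and 24 counts over all 16 libraries, with sums of 2 in BSA, 6 in IL-1β and 8 in each condition with palmitate. Lta had 0 to 11 counts and Ltb 0 to 5 counts per library. Both lie beside Tnf within a short stretch of chromosome 17, with Tnf at chr17:35418357-35420983, minus strand. Neither an increase nor its absence could be shown for these genes at this depth: the ratio of summed Tnf counts of palmitate + IL-1β to BSA was 3.86 (95% counting interval 0.771 to 37.4), which covers counting error only.

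Tnfrsf1a, the broadly expressed receptor for soluble TNF, had 85.9, 92.1, 91.5 and 88 CPM in BSA (control), 83.4, 90.4, 89.3 and 92.1 CPM in IL-1β, 96.1, 94.6, 102 and 99 CPM in palmitate and 96.1, 101, 93.5 and 83.7 CPM in palmitate + IL-1β. The palmitate libraries were all above the BSA libraries, by little, while the other conditions overlapped BSA. With palmitate the log2 fold change was 0.13 ± 0.05 (SE, adjusted p = 0.0311). This call was lost in 6 alternatives, among them upper-quartile normalization, where the change was 0.06. With IL-1β the log2 fold change was -0.01 (95% confidence interval -0.11 to 0.09, adjusted p = 0.933) and with both agents 0.07 (interval -0.03 to 0.17, adjusted p = 0.279), and the sign turned without replicate 2, 3 or 5 for the first and with upper-quartile normalization for the second.

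Ltbr, which responds to lymphotoxin α1β2 and LIGHT, had 70.8, 75.1, 75.5 and 69.2 CPM in BSA (control), 66, 70.2, 73.9 and 71.8 CPM in IL-1β, 78.9, 77.3, 76.4 and 78.1 CPM in palmitate and 77.1, 74.8, 74.8 and 79.6 CPM in palmitate + IL-1β. The palmitate libraries lay just above BSA without overlap, and the other conditions overlapped BSA. Its log2 fold change was -0.04 with IL-1β, 0.10 with palmitate and 0.08 with both agents, none past the threshold (adjusted p = 0.584, 0.0821 and 0.155), and the last turned in sign with upper-quartile normalization. The 95% confidence interval of the change with palmitate was 0.01 to 0.19.

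Tnfrsf1b, which is bound best by membrane TNF and lacks a death domain, had 25.5, 27.1, 27.4 and 26.6 CPM in BSA (control), 25.9, 27.1, 25.8 and 30.4 CPM in IL-1β, 68.1, 65.4, 68.3 and 69.6 CPM in palmitate and 58.6, 58.8, 54.4 and 51.1 CPM in palmitate + IL-1β. Every library with palmitate was above every library without it, and within them the palmitate + IL-1β libraries were all below the palmitate libraries. Its log2 fold change was 1.35 ± 0.05 (SE, adjusted p = 2.42e-19) with palmitate, a 2.55-fold rise, and 1.07 ± 0.05 (SE, adjusted p = 7.42e-17) with both agents. With IL-1β alone it was 0.04 ± 0.06 (SE, adjusted p = 0.741). Tnfrsf1b had a mean of 67.8 ± 1.79 CPM (SD, n = 4) with palmitate and 55.7 ± 3.69 CPM with both agents, and this difference of -0.28 ± 0.05 (SE, adjusted p = 3.05e-04) passed the threshold.

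**Figure D3:**
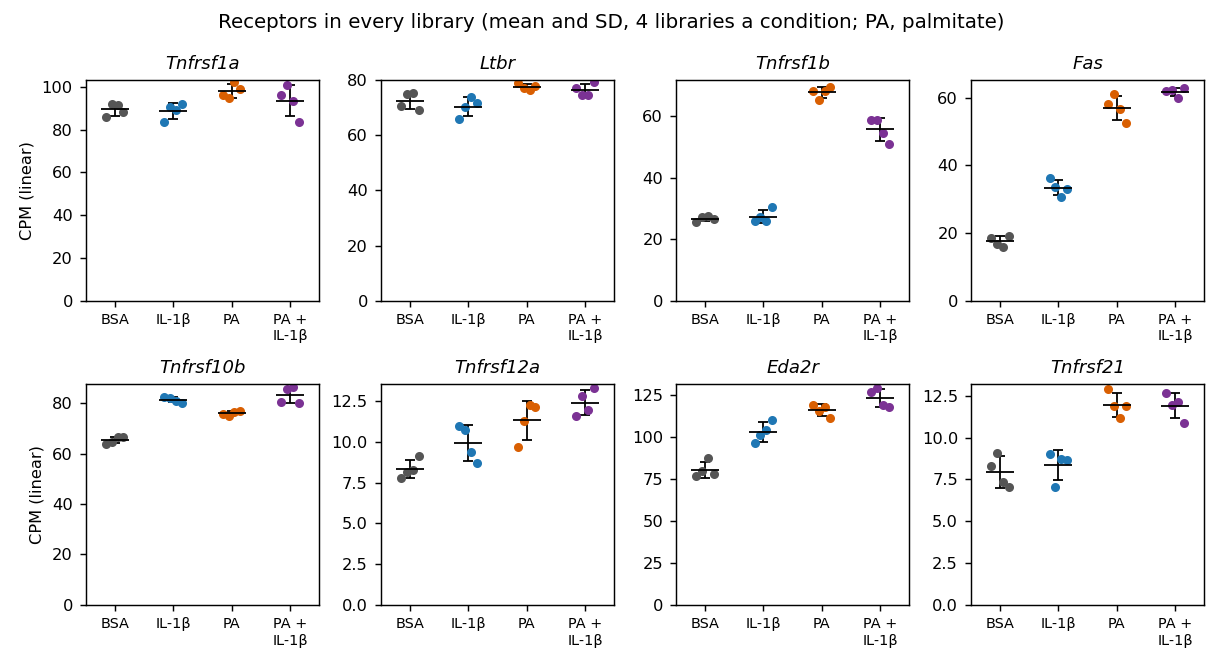
CPM (linear axes from 0) of 8 receptors in each library, grouped by condition, with the mean (long bar) and SD of 4 libraries. Tnfrsf1b and Fas separate the palmitate libraries from the rest, while Tnfrsf1a and Ltbr stay within a narrow band, 83.4 to 102 CPM and 66.0 to 79.6 CPM.

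Among the death receptors, Fas rose with each agent, and the TRAIL receptor Tnfrsf10b changed by less. Fas, whose ligand triggers apoptosis through FADD and caspase-8, had 18.5, 16.6, 15.7 and 19 CPM in BSA (control), 36.2, 33.6, 30.6 and 32.9 CPM in IL-1β, 58, 61, 56.6 and 52.3 CPM in palmitate and 61.8, 62.1, 60 and 62.8 CPM in palmitate + IL-1β. The 3 treated conditions lay above BSA without overlap, and the palmitate libraries with and without IL-1β lay above those of IL-1β alone. The log2 fold change of Fas was 0.93 ± 0.06 (SE, adjusted p = 6.25e-13) with IL-1β, 1.71 ± 0.06 (SE, adjusted p = 8.53e-21) with palmitate and 1.82 ± 0.06 (SE, adjusted p = 1.08e-21) with both agents, which are 1.9-fold, 3.27-fold and 3.52-fold rises. Its ligand Fasl had 3 counts in all 16 libraries together, and Tnfsf10 (TRAIL) had 14.

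Tnfrsf10b, the only mouse TRAIL receptor with a death domain, had 64, 64.7, 66.7 and 66.5 CPM in BSA (control), 82.4, 82.3, 81 and 80.3 CPM in IL-1β, 75.9, 75.1, 76.7 and 77.1 CPM in palmitate and 80.6, 85.7, 86.6 and 80.3 CPM in palmitate + IL-1β. All treated libraries were above all BSA libraries. Its log2 fold change was 0.32 ± 0.04 (SE, adjusted p = 6.31e-07) with IL-1β, 0.22 ± 0.04 (SE, adjusted p = 4.96e-05) with palmitate and 0.35 ± 0.04 (SE, adjusted p = 1.26e-08) with both agents. Of its 50-base runs 5.69% also occur in other genes, so a part of its reads may have been left uncounted.

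Tnfrsf22, Tnfrsf23 and Tnfrsf26 are receptors of the mouse that lie side by side on chromosome 7, from 143161396 to 143239611. Tnfrsf22 and Tnfrsf23 bind TRAIL as decoys, without a death domain. Tnfrsf22 had 11, 11.5, 11.4 and 12.4 CPM in BSA (control), 11, 11.5, 12.3 and 13.9 CPM in IL-1β, 13.7, 15.1, 13.9 and 14.4 CPM in palmitate and 13.4, 14.1, 14.2 and 12.7 CPM in palmitate + IL-1β. Libraries with palmitate lay above BSA without overlap, with or without IL-1β. Tnfrsf22 had a log2 fold change of 0.31 ± 0.07 (SE, adjusted p = 8.73e-04) with palmitate and 0.24 ± 0.07 (SE, adjusted p = 0.00711) with both agents, the latter lost with upper-quartile normalization (0.16, adjusted p = 0.0635). Tnfrsf23 had 44.1, 44.8, 49.3 and 45.3 CPM in BSA (control), 44.7, 40.8, 45.4 and 47.1 CPM in IL-1β, 52, 49.9, 48.1 and 51.8 CPM in palmitate and 47.8, 46.6, 47.1 and 41.8 CPM in palmitate + IL-1β. For Tnfrsf23 the palmitate libraries overlapped BSA and the log2 fold change was 0.14 ± 0.05 (SE, adjusted p = 0.0394), a call that DESeq2 (adjusted p = 0.0611), upper-quartile normalization and fitting without the expression filter did not make. With both agents the change of Tnfrsf23 was 0.00 (adjusted p = 0.998). Of the 50-base runs of Tnfrsf23, 15.7% also occur in Tnfrsf22, and 20.6% of those of Tnfrsf22 occur in 27 other genes, so the counts of both are uncertain.

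Tnfrsf26, the third gene of the cluster, had 6.98, 6.11, 7.17 and 6.33 CPM in BSA (control), 6.42, 6.52, 7.6 and 7.95 CPM in IL-1β, 12, 11.4, 10.9 and 11.3 CPM in palmitate and 11.6, 11.8, 12.2 and 10.9 CPM in palmitate + IL-1β. Every library with palmitate was above every library without it. Tnfrsf26 had a log2 fold change of 0.78 ± 0.08 (SE, adjusted p = 4.05e-09) with palmitate and 0.81 ± 0.08 (SE, adjusted p = 1.32e-09) with both agents, against 0.10 ± 0.09 (SE, adjusted p = 0.503) with IL-1β.

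The receptor of TWEAK rose with palmitate, while TWEAK itself did not pass the threshold in the fit of all 4 conditions. Tnfsf12 (TWEAK) had 2.6, 2.84, 1.91 and 2.1 CPM in BSA (control), 2.29, 1.72, 1.9 and 1.41 CPM in IL-1β, 1.99, 2.34, 2.06 and 2.26 CPM in palmitate and 1.56, 1.69, 2.28 and 1.73 CPM in palmitate + IL-1β. The conditions overlapped, and the log2 fold change was -0.38 ± 0.17 (SE, adjusted p = 0.157) with IL-1β, -0.12 ± 0.16 (SE, adjusted p = 0.62) with palmitate and -0.39 ± 0.17 (SE, adjusted p = 0.0594) with both agents. Of the exon bases of Tnfsf12, 52.4% are also exon bases of the readthrough gene Tnfsfm13 on the same strand, so reads there cannot be given to either gene and its level is uncertain. Tnfrsf12a (Fn14), the TWEAK receptor, which is low in resting tissue and known to rise on injury, had 7.81, 8.17, 8.28 and 9.16 CPM in BSA (control), 11, 10.7, 9.37 and 8.7 CPM in IL-1β, 9.67, 11.3, 12.3 and 12.2 CPM in palmitate and 11.6, 12.8, 12 and 13.3 CPM in palmitate + IL-1β. Its log2 fold change was 0.45 ± 0.09 (SE, adjusted p = 1.09e-04) with palmitate and 0.57 ± 0.09 (SE, adjusted p = 2.02e-06) with both agents, both without overlap with BSA. With IL-1β it was 0.25 ± 0.09 (SE, adjusted p = 0.0562), just short of the threshold. All exon bases of Tnfrsf12a also lie within exons of Hcfc1r1 on the opposite strand. Counting by strand keeps these apart only if the libraries were stranded, and the sources differ on the kit. Tnfsf12 passed the threshold with both agents in 4 alternatives, where its log2 fold change lay between -0.52 and -0.44.

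Cd40 had the largest rise of the family with palmitate. It is known from B cells, macrophages and dendritic cells, and in fibroblasts its engagement by CD40 ligand drives cytokine production. It had 0.0888, 0.129, 0.114 and 0.035 CPM in BSA (control), 0.327, 0.586, 0.443 and 0.207 CPM in IL-1β, 7.38, 6.62, 6.1 and 6.74 CPM in palmitate and 6.63, 5.69, 6.85 and 7.04 CPM in palmitate + IL-1β. The BSA libraries held 1 to 4 counts each, the IL-1β libraries were all above them, and the libraries with palmitate were all above both. The ratio of summed counts to BSA was 4.32 (95% counting interval 2.18 to 9.29) with IL-1β, 72.3 (95% counting interval 40.2 to 145) with palmitate and 71.1 (95% counting interval 39.5 to 143) with both agents. The fitted log2 fold changes were 2.06 ± 0.41 (SE, adjusted p = 5.45e-04), 6.12 ± 0.23 (SE, adjusted p = 4.49e-20) and 6.09 ± 0.23 (SE, adjusted p = 4.16e-20). The 6 leukocyte markers summed to between 2.58 and 4.35 CPM in BSA and between 2.57 and 3.53 CPM in palmitate, and the 5 lymphocyte markers reached at most 0.0699 CPM in BSA and 0.011 CPM in palmitate. Cd40lg, the ligand, had 0 counts in all 16 libraries.

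Tnfrsf9 (4-1BB, CD137), a receptor best known from activated T cells, had 0.562, 0.388, 0.649 and 0.594 CPM in BSA (control), 1.68, 1.21, 1.46 and 0.746 CPM in IL-1β, 2.53, 2.68, 3.08 and 2.83 CPM in palmitate and 2.63, 2.32, 2.48 and 2.54 CPM in palmitate + IL-1β. Its levels rose in steps from BSA over IL-1β to the conditions with palmitate, with no overlap between these 3. The log2 fold change was 1.23 ± 0.24 (SE, adjusted p = 2.99e-04) with IL-1β, 2.34 ± 0.21 (SE, adjusted p = 5.28e-11) with palmitate and 2.19 ± 0.21 (SE, adjusted p = 2.52e-10) with both agents. Tnfsf9, its ligand, had 0.799, 0.711, 0.61 and 0.594 CPM in BSA (control), 0.941, 1.29, 0.791 and 0.87 CPM in IL-1β, 0.972, 1.26, 0.624 and 1.48 CPM in palmitate and 0.822, 1.36, 0.9 and 0.847 CPM in palmitate + IL-1β. In palmitate replicate 11 the ligand was as low as in BSA, and the palmitate libraries overlapped BSA. For Tnfsf9 the log2 fold change was 0.69 ± 0.26 (SE, adjusted p = 0.0345) with palmitate, 0.50 ± 0.27 (SE, adjusted p = 0.246) with IL-1β and 0.52 ± 0.27 (SE, adjusted p = 0.113) with both agents. The call with palmitate was lost in 7 alternatives.

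Tnfrsf14 (HVEM), which binds LIGHT and the inhibitory receptor BTLA, had 2.9, 2.84, 3.47 and 2.73 CPM in BSA (control), 2.95, 3.9, 3.36 and 3.07 CPM in IL-1β, 7.72, 7.84, 7.27 and 7.23 CPM in palmitate and 7.59, 7.68, 6.88 and 7.59 CPM in palmitate + IL-1β. Every library with palmitate was above every library without it, and IL-1β alone overlapped BSA. The log2 fold change was 1.34 ± 0.11 (SE, adjusted p = 3.96e-12) with palmitate, 1.32 ± 0.11 (SE, adjusted p = 4.49e-12) with both agents and 0.16 ± 0.12 (SE, adjusted p = 0.417) with IL-1β. Its ligand Tnfsf14 (LIGHT) had 1 count in all libraries together. Of the 50-base runs of Tnfrsf14, 4.97% also occur in other genes, so a part of its reads may have been left uncounted.

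Tnfsf15 (TL1A), a ligand linked to inflammatory disease of the gut, had 0.237, 0.162, 0.305 and 0.315 CPM in BSA (control), 1.02, 0.586, 0.665 and 0.373 CPM in IL-1β, 1.6, 1.69, 1.58 and 1.4 CPM in palmitate and 1.56, 1.46, 1.48 and 1.95 CPM in palmitate + IL-1β. Levels rose in the order BSA, IL-1β and palmitate without overlap, and the palmitate libraries with and without IL-1β overlapped. For Tnfsf15 the log2 fold change was 1.38 ± 0.33 (SE, adjusted p = 0.00292) with IL-1β, 2.63 ± 0.28 (SE, adjusted p = 2.77e-09) with palmitate and 2.66 ± 0.28 (SE, adjusted p = 1.78e-09) with both agents. Tnfrsf25 (DR3), the receptor of TL1A, had 1.39, 1.39, 0.649 and 0.699 CPM in BSA (control), 0.737, 0.625, 0.728 and 1.24 CPM in IL-1β, 0.534, 0.518, 0.771 and 0.575 CPM in palmitate and 0.992, 0.927, 0.354 and 0.81 CPM in palmitate + IL-1β. It was the 1 member that fell with palmitate, with a log2 fold change of -0.83 ± 0.31 (SE, adjusted p = 0.0314), although the palmitate and BSA libraries overlapped and the call was lost when any 1 of 5 libraries was left out. With both agents the log2 fold change of Tnfrsf25 was -0.44 ± 0.30 (SE, adjusted p = 0.237). Of the exon bases of Tnfrsf25, 17.1% also lie within exons of Espn on the opposite strand, with the same limit as for Tnfrsf12a.

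Tnfsf8 (CD30 ligand) is the neighbour of Tnfsf15 on chromosome 4, at chr4:63749542-63779592, minus strand against chr4:63642840-63663442, minus strand. It had 0, 0.162, 0 and 0 CPM in BSA (control), 0, 0, 0.0317 and 0.0414 CPM in IL-1β, 0.194, 0.309, 0.33 and 0.37 CPM in palmitate and 0.368, 0.43, 0.289 and 0.405 CPM in palmitate + IL-1β. All 8 libraries with palmitate were above all 8 without it, at very low levels. Of the 5 counts in BSA all 5 came from replicate 2. The ratio of summed counts to BSA was 7.34 (95% counting interval 2.94 to 23.6) with palmitate and 8.89 (95% counting interval 3.55 to 28.7) with both agents. Without BSA replicate 2, the 3 other BSA libraries held 0 counts. With 3 counts set in their place, the ratio was 9.07 and 11.0. These 2 ratios leave out counting error in the treated libraries and are not lower limits. The fitted log2 fold change was 2.76 ± 0.65 (SE, adjusted p = 9.05e-04) with palmitate and 3.04 ± 0.64 (SE, adjusted p = 1.87e-04) with both agents. Without replicate 2 the fit gave 6.31 ± 1.04 and 6.59 ± 1.01 (SE). The BSA libraries then held 0 counts, so these values are not measured sizes of the rise. Tnfrsf8 (CD30), its receptor, had 0 to 7 counts per library.

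Tnfsf18 (GITR ligand) had 0.0296, 0.0323, 0.229 and 0 CPM in BSA (control), 0.286, 0.312, 0.317 and 0.249 CPM in IL-1β, 1.12, 0.893, 0.991 and 0.575 CPM in palmitate and 1.1, 1.09, 0.675 and 0.958 CPM in palmitate + IL-1β. The 3 treated conditions were above BSA, and the conditions with palmitate above IL-1β, without overlap. The ratio of summed counts to BSA was 4.38 (95% counting interval 1.97 to 11) with IL-1β, 13.3 (95% counting interval 6.57 to 31.4) with palmitate and 14.4 (95% counting interval 7.06 to 34.1) with both agents. Its log2 fold changes were 2.06 ± 0.58 (SE, adjusted p = 0.0139), 3.65 ± 0.46 (SE, adjusted p = 1.08e-07) and 3.76 ± 0.46 (SE, adjusted p = 4.09e-08). BSA replicate 3 held 6 of the 8 BSA counts, and without it the log2 fold changes were 3.55, 5.15 and 5.25. The ratios of summed counts, set against the 2 BSA counts left, were then 13.7 (95% counting interval 3.48 to 118), 41.5 (95% counting interval 11.3 to 346) and 44.9 (95% counting interval 12.2 to 375). Their sizes are therefore poorly known. The call with IL-1β was lost without BSA replicate 1 or 2. Tnfrsf18 (GITR), the receptor, had 1 to 30 counts per library and was not tested.

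Tnfsf4 (OX40 ligand) lies beside Tnfsf18 on chromosome 1, at chr1:161222980-161245981, plus strand. It missed the filter, with 2 counts in BSA, 15 with palmitate, 16 with IL-1β and 39 with both agents, of which 21 came from replicate 16. The ratio of summed counts to BSA was 5.5 (95% counting interval 1.28 to 49.6), 9.04 (95% counting interval 2.13 to 81.1) and 18.8 (95% counting interval 4.88 to 161). Without replicate 16 the last was 11.1 (95% counting interval 2.67 to 99.0). Tnfrsf4 (OX40) was tested at 0.317 to 0.769 CPM and passed the threshold in none of the 7 comparisons.

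**Figure D4:**
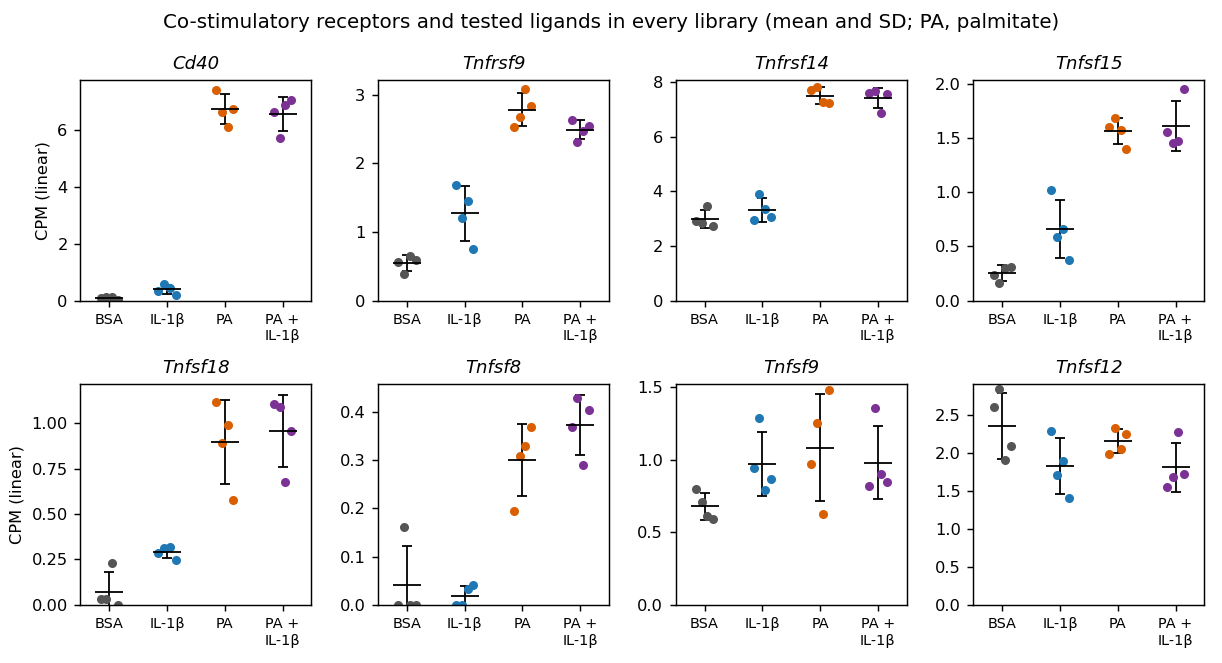
CPM (linear axes from 0) of 3 co-stimulatory receptors and the 5 tested ligands in each library, grouped by condition, with the mean (long bar) and SD of 4 libraries. For Cd40, Tnfrsf14 and Tnfsf8 the libraries with palmitate stand apart from those without it, and for Tnfrsf9, Tnfsf15 and Tnfsf18 IL-1β lies between.

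The promoters of the 8 members that rose more than 2-fold with palmitate (Cd40, Tnfsf18, Tnfsf8, Tnfsf15, Tnfrsf9, Fas, Tnfrsf1b and Tnfrsf14) were searched for NF-κB motifs, since NF-κB is the best known factor downstream of IL-1β and of the family itself. RefSeq windows of the 250 bases before a start, from build GRCm38.p6, held 31 of the 38 members and 7 of these 8, without Cd40. The motifs were the NF-κB consensus and the shorter GGNNTTTCC, on both strands, and matches of both may overlap. The consensus was held by 8.23% of the 27025 genes with a window, the shorter motif by 5.62% and both by 1.39%. Among the 7 genes 1, Tnfrsf9, held each motif, in the window of the second of its 2 starts. The matches overlap and end 33 and 32 bases before that start for the consensus and 33 for the shorter motif. They lie within the last 81 bases of the window, which are annotated as exon. The other 6 held no match to either in this window. Of the 31 members with a window, 4 held the consensus and 4 the shorter motif. Tnfrsf25, the member that fell with palmitate, also held each motif, though not both in 1 window. The first line gives 30 bases around the match in Tnfrsf9, with the bases of the matches in capitals. The next lines give, for comparison, the part before the first annotated exon base of the windows of 3 genes without a match, the ligand Tnfsf18 and the receptors Fas and Tnfrsf1b. All positions are exact matches in GRCm39.
Tnfrsf9, chr4:151012404-151012433, plus strand: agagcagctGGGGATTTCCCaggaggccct
Tnfsf18, chr1:161321976-161322223, plus strand: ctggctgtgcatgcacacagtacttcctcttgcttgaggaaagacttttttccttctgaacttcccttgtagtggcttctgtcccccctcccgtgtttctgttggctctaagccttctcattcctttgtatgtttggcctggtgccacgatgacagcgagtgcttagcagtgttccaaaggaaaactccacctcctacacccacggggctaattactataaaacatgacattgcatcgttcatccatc
Fas, chr19:34267809-34268000, plus strand: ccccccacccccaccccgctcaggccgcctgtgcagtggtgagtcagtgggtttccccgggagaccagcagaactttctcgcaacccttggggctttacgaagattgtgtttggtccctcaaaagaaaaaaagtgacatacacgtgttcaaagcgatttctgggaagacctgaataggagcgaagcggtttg
Tnfrsf1b, chr4:144973478-144973690, minus strand: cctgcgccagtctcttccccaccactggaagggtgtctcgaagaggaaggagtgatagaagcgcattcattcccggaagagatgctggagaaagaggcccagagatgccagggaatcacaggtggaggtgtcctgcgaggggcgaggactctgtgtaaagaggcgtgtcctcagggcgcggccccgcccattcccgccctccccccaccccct
A match describes letters in the window and no match says only that they are not there.

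BAFF (Tnfsf13b), APRIL (Tnfsf13) and their receptors serve B cells and plasma cells. Tnfsf13b had 0 to 8 counts and Tnfsf13 0 to 16 counts per library, and the receptors Tnfrsf13b, Tnfrsf13c and Tnfrsf17 had at most 6, 4 and 2. Of the exon bases of Tnfsf13, 65.7% are shared with Tnfsfm13 on the same strand, so its low counts may leave out ambiguous reads. Summed Tnfsf13b counts were 5 in BSA, 19 with palmitate, 17 with IL-1β and 15 with both agents, with a ratio to BSA of 2.79 (95% counting interval 1.01 to 9.56), 3.84 (95% counting interval 1.36 to 13.3) and 2.9 (95% counting interval 1 to 10.2). These intervals cover counting error only, and Tnfsf13b was not tested. Both conditions with palmitate overlapped BSA, which reached 0.0699 CPM. Palmitate replicate 10 was at 0.0551 CPM and palmitate + IL-1β replicate 15 at 0. The IL-1β libraries lay just above BSA, the lowest on 2 counts.

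The remaining receptors have roles outside the immune system or less well known ligands. Eda2r (XEDAR), the receptor of ectodysplasin A2 and a known p53 target, had 76.5, 79.3, 87.2 and 77.7 CPM in BSA (control), 95.9, 101, 104 and 109.8 CPM in IL-1β, 118, 115, 118 and 111 CPM in palmitate and 126, 129, 119 and 118 CPM in palmitate + IL-1β. Here too all treated libraries were above all BSA libraries. Eda2r had a log2 fold change of 0.36 ± 0.05 (SE, adjusted p = 1.57e-06) with IL-1β, 0.53 ± 0.05 (SE, adjusted p = 9.90e-11) with palmitate and 0.62 ± 0.05 (SE, adjusted p = 1.96e-12) with both agents. Tnfrsf21 (DR6), a death domain receptor studied in neurons and T cells, had 8.29, 9.11, 7.32 and 7.06 CPM in BSA (control), 9.04, 7.03, 8.71 and 8.66 CPM in IL-1β, 12.9, 11.9, 11.2 and 11.9 CPM in palmitate and 12.7, 11.9, 12.1 and 10.9 CPM in palmitate + IL-1β. Every library with palmitate was above every library without it, and the log2 fold change was 0.58 ± 0.09 (SE, adjusted p = 2.34e-06) with palmitate, 0.58 ± 0.09 (SE, adjusted p = 1.77e-06) with both agents and 0.07 ± 0.09 (SE, adjusted p = 0.691) with IL-1β.

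Tnfrsf11a (RANK), the receptor that drives osteoclast formation, had 0.799, 0.646, 0.877 and 0.839 CPM in BSA (control), 0.859, 0.859, 1.3 and 0.953 CPM in IL-1β, 1.36, 1.25, 0.918 and 1.11 CPM in palmitate and 0.822, 0.761, 0.675 and 0.884 CPM in palmitate + IL-1β. The palmitate libraries were above BSA without overlap, while those of palmitate + IL-1β overlapped BSA and were all below palmitate. Tnfrsf11a had a log2 fold change of 0.56 ± 0.22 (SE, adjusted p = 0.0432) with palmitate, a call lost in 11 alternatives, and -0.01 ± 0.23 (SE, adjusted p = 0.986) with both agents. The difference between palmitate + IL-1β and palmitate was -0.57 ± 0.22 (SE, adjusted p = 0.101). Tnfrsf19 (TROY) was tested at 0.175 to 0.632 CPM and passed the threshold in none of the 7 comparisons, and Ngfr, the low-affinity neurotrophin receptor, had 0 to 16 counts per library. Outside the naming rule, Cd27 and Edar had at most 13 and 2 counts in a library, Cd70 at most 7, and Relt and Eda mean levels of 1.64 and 1.21 CPM in BSA and 1.29 and 0.76 CPM in palmitate. The fall of Eda with palmitate passed the threshold at -0.72 ± 0.24 (SE, adjusted p = 0.0185), with overlapping libraries. That of Relt did not, at -0.29 ± 0.20 (SE, adjusted p = 0.276). Tnfsf11 and Tnfrsf11b, which the rule leaves out, had mean levels of 0.619 and 64.0 CPM in BSA.

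Against palmitate alone, palmitate + IL-1β raised 1 tested member, Tnfrsf10b, and lowered 1, Tnfrsf1b, as given above. These are 8.70% of the tested members. The libraries did not overlap for 4 members. The log2 fold change of Tnfrsf10b was 0.13 ± 0.04 (SE, adjusted p = 0.0351). Over all genes tested 9.81% were called in this comparison, 5.71% higher and 4.1% lower, with no overlap for 16.7%. The call of Tnfrsf10b was lost in 11 alternatives. Against IL-1β alone, palmitate + IL-1β raised 13 tested members and lowered 0, where 35% of all genes tested were called, 18.9% higher and 16.1% lower, with no overlap for 31.3%. The libraries did not overlap for 13 members. Ltbr was among the 13, with a log2 fold change of 0.12 ± 0.04 (SE, adjusted p = 0.0339), a call lost in 8 alternatives. Cd40 had 4.03 ± 0.18 (SE, adjusted p = 1.11e-17), Fas 0.89 ± 0.06 (SE, adjusted p = 5.78e-14) and Tnfrsf1b 1.03 ± 0.05 (SE, adjusted p = 5.53e-16) in this comparison.

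Palmitate against IL-1β, compared directly, gave 15 higher members and 0 lower, with 31.6% of all genes tested called, 16.5% higher and 15.2% lower, and no overlap for 15 members and for 31.1% of all genes. The largest of these log2 differences with a mean over 1 CPM in both conditions were 1.31 ± 0.05 (SE, adjusted p = 1.58e-18) for Tnfrsf1b, 1.18 ± 0.11 (SE, adjusted p = 1.33e-10) for Tnfrsf14 and 1.11 ± 0.18 (SE, adjusted p = 1.20e-05) for Tnfrsf9. Tnfrsf10b had -0.10 (adjusted p = 0.0625).

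On the log2 scale, the change with palmitate was smaller in the presence of IL-1β for 5 tested members. The test of this difference, the interaction of the agents, called 5 members, all lower, where it called 1.99% of all genes tested, 1.83% lower and 0.159% higher. Of the 5, all but Cd40 had 10 or more counts in every library. For Cd40 the log2 change with palmitate was 6.12 without IL-1β and 4.03 with it, an interaction of -2.09 ± 0.43 (SE, adjusted p = 0.0035). Tnfrsf9 had 2.34 and 0.96, with an interaction of -1.38 ± 0.29 (SE, adjusted p = 0.00355). Fas had 1.71 and 0.89, with an interaction of -0.82 ± 0.08 (SE, adjusted p = 3.11e-08). For all 3 the libraries of palmitate and of palmitate + IL-1β overlapped, and IL-1β alone had raised the gene. The other 2 were Tnfrsf1b with -0.32 ± 0.08 (SE, adjusted p = 0.0187) and Eda2r with -0.27 ± 0.07 (SE, adjusted p = 0.0237), and both calls were lost with upper-quartile normalization. The call of Eda2r was lost in 9 alternatives in all, 8 of them fits without 1 library, and that of Tnfrsf1b in 3. Tnfsf15 and Tnfsf18 had interactions of -1.36 ± 0.39 (SE, adjusted p = 0.0631) and -1.95 ± 0.65 (SE, adjusted p = 0.167), which missed the threshold.

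**Figure D5:**
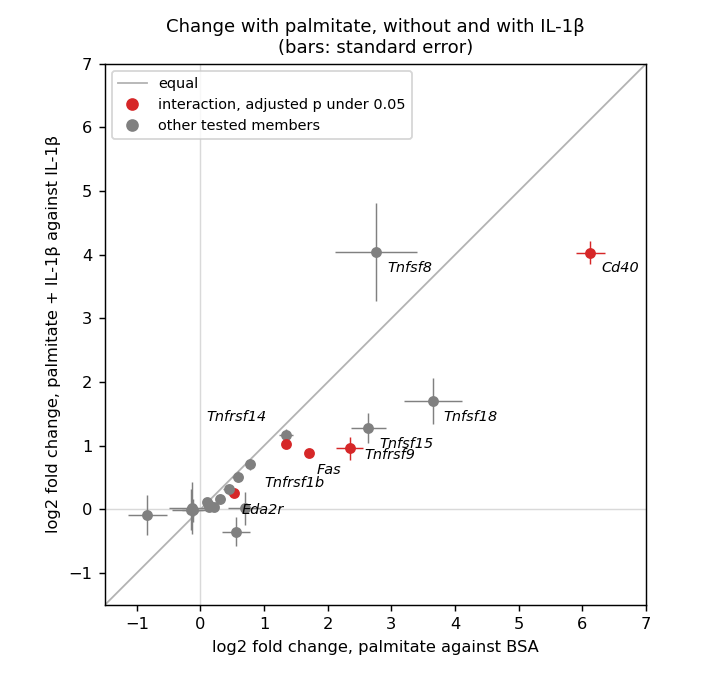
Log2 fold change of each tested member with palmitate in the absence of IL-1β (palmitate against BSA, horizontal) and in its presence (palmitate + IL-1β against IL-1β, vertical), with standard errors and the line of equal change. The 5 members with a called interaction (red) lie below the line, Cd40 at 6.12 and 4.03, and Tnfsf8 lies above it on 2 counts in IL-1β.

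Of the 43 genes that carry or limit the signal of these receptors (adaptors, kinases, caspases, ubiquitin enzymes and sheddases), all were tested. With IL-1β 14 rose and 1 fell, with palmitate 21 rose and 4 fell, and with palmitate + IL-1β 26 rose and 6 fell. Their median log2 fold change was 0.08, 0.19 and 0.20. These counts stand against the shares of all genes given above. Among the genes with a mean of at least 1 CPM, the largest rises were those of Tnfaip3 and Birc3 in all 3 comparisons. Tnfaip3 (A20), a deubiquitinase that dampens TNF receptor signalling and is itself an NF-κB target, had 8.08 ± 0.506 CPM in BSA, 26.8 ± 2.4 CPM in IL-1β, 35.3 ± 0.57 CPM in palmitate and 42 ± 1.73 CPM in palmitate + IL-1β (mean ± SD, n = 4). This gave log2 fold changes of 1.73 ± 0.07 (SE, adjusted p = 5.43e-19), 2.12 ± 0.07 (SE, adjusted p = 1.89e-22) and 2.37 ± 0.06 (SE, adjusted p = 5.94e-24). Birc3 (cIAP2), a ubiquitin ligase at the TNF receptors, had 1.01 ± 0.06 (SE, adjusted p = 3.51e-15), 1.46 ± 0.05 (SE, adjusted p = 2.28e-20) and 1.84 ± 0.05 (SE, adjusted p = 3.51e-23).

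By the order of the fitted values, the third largest rise at a mean of at least 1 CPM was a different gene in each comparison. With IL-1β it was Tnip1, a partner of A20, at 0.72 ± 0.05 (SE, adjusted p = 3.20e-13). With palmitate it was Mlkl, the executor of necroptosis, at 1.20 ± 0.08 (SE, adjusted p = 1.33e-13). With both agents it was Rhbdf2 (iRhom2), which brings the TNF-shedding protease ADAM17 to the surface, at 1.30 ± 0.05 (SE, adjusted p = 1.38e-19). Below that level Traf1, a TRAF adaptor named here after its values were seen, had 0.215 ± 0.0351 CPM in BSA and log2 fold changes of 1.92 ± 0.37 (SE, adjusted p = 3.57e-04) with IL-1β, 1.30 ± 0.38 (SE, adjusted p = 0.00756) with palmitate and 1.62 ± 0.38 (SE, adjusted p = 6.70e-04) with both agents. Mlkl had 14.3 ± 0.695 CPM in BSA, 16 ± 1.03 CPM in IL-1β, 32.9 ± 2.34 CPM in palmitate and 35.3 ± 4.74 CPM in palmitate + IL-1β. Rhbdf2 had 17.6 ± 0.936, 26.4 ± 0.595, 40.6 ± 2.00 and 43.5 ± 0.991 CPM in the same order. In both conditions with palmitate Mlkl and Rhbdf2 rose by nearly the same factor, so their order there is not settled. The falls were small. Traf5, an adaptor of several co-stimulatory receptors, fell in all 3 comparisons, by 0.27, 0.28 and 0.53 on the log2 scale (adjusted p = 0.0469, 0.0152 and 2.01e-05). Map3k5 fell by 0.25 with palmitate and 0.32 with both agents, Map3k14 by 0.18 with palmitate and Sppl2b by 0.24 with both agents. Between palmitate + IL-1β and palmitate 9 genes of the list were higher and 1 lower, where 5.71% of all genes tested were higher and 4.1% lower. Between palmitate + IL-1β and IL-1β 19 were higher and 4 lower, where 18.9% of all genes were higher and 16.1% lower. Palmitate against IL-1β gave 22 higher and 2 lower, where 16.5% of all genes were higher and 15.2% lower. The interaction called 6, all lower, where it called 1.83% of all genes lower and 0.159% higher. It was -1.48 ± 0.09 (SE, adjusted p = 1.04e-13) for Tnfaip3 and -0.63 ± 0.07 (SE, adjusted p = 4.79e-07) for Birc3.

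By position, chromosome 4 holds 9 of the 38 members and chromosome 17 holds 7, with Tnf, Lta and Ltb among the latter. Positions are those of GRCm39.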

How the data were processed

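Labels and methods differ on the kit (stranded total RNA against oligo(dT)), so which molecules were primed is uncertain. The authors demultiplexed with bcl2fastq2, trimmed with Trimmomatic 0.39, aligned to GRCm39 with GENCODE vM33 annotation in STAR 2.7.10a, counted reads per gene by strand in HTSeq 2.0.9, and tested with DESeq2. The deposited values are raw counts per gene. Between 18.3% and 21.4% of a library lay in rows that name no gene, which entered no total and no test.

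Counts of all genes were fitted in edgeR 4.0.16 (limma 3.58.1, R 4.3.3) with TMM factors (0.970 to 1.04), filterByExpr at a minimum count of 10, and the quasi-likelihood test over all 4 conditions. The 16306 genes that passed gave a common biological coefficient of variation of 6.08%. Contrasts from this fit are two-sided, with Benjamini-Hochberg adjustment over all genes tested and a threshold of 0.05. Levels are CPM, also divided by the length of the exon union. Intervals of summed counts and floors (3 counts) cover counting error only. Shared sequence was counted as 50-base runs that also occur in transcripts of other genes. Positions and exons are from GENCODE vM39 on GRCm39.

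The members and lists were chosen with earlier results of these data known. By the rule for naming genes, every member is accounted for, values of every library are given for members called in any comparison or above a mean of 1 CPM, and the signalling genes named are the 3 largest called rises and falls of each comparison with BSA, at a mean of at least 1 CPM. The alternatives were DESeq2 1.42.0, upper-quartile normalization, 2 other filters, a fit of only the conditions compared, the longest transcript as length, and each library left out in turn. The scripts were tested on simulated data.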

Additional observations from a re-analysis of the deposited data

Results flagged for a closer look

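In 6 of 96 groups of 4 libraries, 1 library stood further from the others than Dixon's test allows at the 95% level, and chance flags about 1 in 20 groups. Tnfsf18 in BSA was 0.229 CPM in replicate 3 and at most 0.0323 CPM in the others. Tnfsf8 in BSA was 0.162 CPM in replicate 2 and 0 in the others. Tnfsf9 with palmitate + IL-1β was 1.36 CPM in replicate 14 and at most 0.9 CPM in the others. Tnfrsf14 with palmitate + IL-1β was 6.88 CPM in replicate 15 and at least 7.59 CPM in the others. The remaining 2 were library sizes, 92752515 counts in palmitate replicate 10 and 31314557 counts in IL-1β replicate 7. In palmitate replicate 10 Cd40 was at 6.62 CPM and Fas at 61.0 CPM, against means of 6.74 and 55.6 CPM in the 3 other palmitate libraries.

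For 5 members the log2 change with palmitate differed between cells with and without IL-1β by edgeR's test of the interaction. The log2 change with palmitate was smaller in the presence of IL-1β by a difference of -2.09 for Cd40 (adjusted p = 0.0035), -1.38 for Tnfrsf9 (adjusted p = 0.00355) and -0.82 for Fas (adjusted p = 3.11e-08). The differences were -0.32 for Tnfrsf1b (adjusted p = 0.0187) and -0.27 for Eda2r (adjusted p = 0.0237), and both calls were lost with upper-quartile normalization.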

How the results depend on the processing

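Of the 75 differences of single members past the threshold over the 7 comparisons, 60 kept their direction and the threshold in every alternative fit that tested them. Of the 75, 15 lost the threshold in at least 1, and 0 turned in direction. When only the 2 conditions compared were fitted, 4 members were called with IL-1β in place of 7, where 18 members passed the filter, and 1 between palmitate + IL-1β and palmitate in place of 2. Without the expression filter this last count was also 1. With upper-quartile normalization the interaction called 3 members in place of 5. With the longest transcript as length Ltbr stood at 33.6 CPM per kb, behind Tnfrsf1a. The cause of the other changes was not tested.

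Leaving out 1 library at a time, the number of members called ranged from 6 to 8 with IL-1β, 14 to 19 with palmitate, 13 to 15 with both agents, 1 to 2 for both agents against palmitate, 11 to 14 against IL-1β, 13 to 16 for palmitate against IL-1β, and 3 to 6 for the interaction. For the signalling list these ranges were 13 to 15, 22 to 26, 27 to 32, 8 to 11, 20 to 23, 23 to 25 and 5 to 7.

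Among the 29 differences from BSA that missed the threshold, 8 turned in sign in some alternative, and 3 passed the threshold in some (Tnfsf12 with both agents in 4 fits, Tnfrsf12a with IL-1β in 3 and Tnfrsf1a with both agents in 1). With upper-quartile normalization the log2 fold change was -0.011 for Tnfrsf1b with IL-1β and, with both agents, -0.0024 for Ltbr, -0.013 for Tnfrsf1a and -0.078 for Tnfrsf23. Tnfrsf23 with both agents was also -0.0091 in DESeq2, -0.033 without the expression filter and -0.0086 with only the 2 conditions. Leaving out 1 library gave ranges of -0.034 to 0.042 for Tnfrsf23 and -0.11 to 0.061 for Tnfrsf11a with both agents, -0.37 to 0.073 for Tnfrsf19 with palmitate, and, with IL-1β, -0.034 to 0.020 for Tnfrsf1a, -0.018 to 0.063 for Tnfrsf1b and -1.51 to 2.55 for Tnfsf8. Tnfsf8 did not pass the filter in 2 of these fits, and its 2.55 came without BSA replicate 2, where BSA held 0 counts. No paired analysis was possible because the library numbers run from 1 to 16 and no number is shared between conditions. At this depth, genes under a few counts per library, Tnf among them, could not be compared.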
